A study of Arabidopsis thaliana with 6 samples.

Results

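The genes described are 32 nuclear transport genes of Arabidopsis thaliana, taken by gene ID from a count table of 32833 genes. They are 9 importin alpha genes, 7 importin beta family receptors, 6 exportins, 3 Ran GTPases, 2 Ran GTPase-activating proteins (RanGAP), 3 Ran-binding proteins of the RanBP1 type and 2 NTF2 genes. Messenger RNA was sequenced from whole, untreated seedlings aged 7 days, grown on half-strength MS medium with 1% sucrose. Wild type (Col-0) was compared with a gbpl3 mutant whose allele is not stated, with 3 libraries per genotype. By the series' title, GBPL3 belongs to the nuclear basket, the fibrous part of the nuclear pore that faces the nucleoplasm. Whether replicate libraries stem from separately grown seedlings is not stated, so the p-values reflect only the spread among these libraries, which may be technical.

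Proteins too large to diffuse through the nuclear pore are carried by transport receptors. Importin alpha binds a classical nuclear localisation signal and travels with importin beta, while other members of the importin beta family bind their cargo directly, and exportins carry cargo out. Direction comes from Ran, a small GTPase that is mostly GTP-bound inside the nucleus and GDP-bound in the cytoplasm. Ran-GTP releases cargo from importins and is needed for exportins to hold theirs. RanGAP, helped by RanBP1, triggers GTP hydrolysis on the cytoplasmic side, and NTF2 brings Ran-GDP back into the nucleus. In plants several of these proteins are encoded by small gene families, so which copy supplies most of the transcript is a separate question from whether the family changes.

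Total counts per library ran from 9530643 to 12911891, and 3 counts in the smallest library correspond to 0.315 CPM (counts scaled to library size). GBPL3 (AT5G46070, assigned from background knowledge) had 790, 827 and 646 counts in the 3 wild-type libraries against 156, 243 and 168 in the mutant ones. Its level fell 4.11-fold, with an adjusted p of 5.11e-09 from the quasi-likelihood F test of edgeR, Benjamini-Hochberg adjusted over all 20677 tested genes, the test behind every adjusted p below. On the second principal component wild-type replicate 2 lay at -42.6, below the other 5 libraries, which lay between -4.3 and 28.4.

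Families of near-identical genes are counted separately only where their sequences differ, so the Ran genes are shown first. The coding sequences of RAN1 (AT5G20010), RAN2 (AT5G20020) and RAN3 (AT5G55190) are each 666 bases long. RAN1 and RAN2 are neighbours on chromosome 5, at chr5:6760094-6762330 and chr5:6762569-6764683 of TAIR10.1, and RAN3 lies on the same chromosome at chr5:22392063-22394185. The first 120 coding bases, from RefSeq TAIR10.1, are given on the coding strand, with capitals at the 13 positions where the 3 genes are not all alike.
RAN1: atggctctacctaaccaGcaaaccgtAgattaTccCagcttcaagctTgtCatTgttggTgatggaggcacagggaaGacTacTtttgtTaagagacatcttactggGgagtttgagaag
RAN2: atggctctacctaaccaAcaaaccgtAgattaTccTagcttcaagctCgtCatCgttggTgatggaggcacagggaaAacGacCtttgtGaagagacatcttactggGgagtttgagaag
RAN3: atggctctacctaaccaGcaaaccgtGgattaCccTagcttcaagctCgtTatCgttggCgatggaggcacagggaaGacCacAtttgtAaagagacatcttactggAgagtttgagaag
Over the whole coding sequence RAN1 and RAN2 were 93.7% identical, RAN1 and RAN3 86.9%, and RAN2 and RAN3 87.4%. The longest run shared by RAN1 and RAN2 covers coding bases 91 to 155, over which these genes cannot be told apart. At 65 bases it is shorter than 1 read of about 150 bases, so a full read also covers bases outside it. Capitals in the RAN3 line mark the 3 positions at which that gene differs.
RAN1 and RAN2: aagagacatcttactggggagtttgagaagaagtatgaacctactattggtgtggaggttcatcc
RAN3: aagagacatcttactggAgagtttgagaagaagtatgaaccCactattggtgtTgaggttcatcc
Of all windows of 50 bases in the transcripts, RAN1 shared 2.86% and RAN2 3.6% with each other, and RAN3 shared none with any gene. At 150 bases, close to 1 read, neither RAN1 nor RAN2 shared a window, and the same held for 29 of the 32 genes. IMPA3, PSD and RANGAP1 shared 1.61%, 1.19% and 3.08% of such windows, with neighbours whose exons overlap theirs.

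Of the 32 genes, 30 passed the filter on low counts and were tested. 3 of the 30, or 10%, fell in gbpl3, none rose and 27 were not called. Among all 20677 tested genes 10.7% were called, 4.69% lower and 6.06% higher. The share of transport genes called in either direction was therefore close to the background. By direction it was not: 10% were called lower against 4.69%, and none higher against 6.06%, though this rests on 3 calls. The 3 that fell were the importin beta family receptors SAD2 and emb2734 and the GTPase RAN3, with folds of 1.4, 1.41 and 1.26. The median log2 fold change of the 30 genes was -0.16, against -0.00 over all tested genes, and 25 of them (83.3%) had a value below 0, against 50.5% of all genes. For 7 uncalled genes near 0 (IMPA9, KPNB1, AT3G08960, MOS14, RAN1, RANGAP1 and AT2G30060) the sign changed when a library was left out. In 11 of the 30 (36.7%) every gbpl3 library lay below every wild-type library, against 13.6% of all tested genes. The opposite separation, with every gbpl3 library higher, occurred in none of the 30 and in 14.5% of all genes. These shares describe the list, and no test of the list as a whole was made. At an unadjusted p under 0.05, 8 of the 30 (26.7%) passed, against 23.6% of all genes. All 8 were lower in gbpl3, and DESeq2 called the same 3 genes and none higher. Since the tissue is whole seedlings, fewer cells of a type and less RNA per cell cannot be told apart in any of these values.

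**Figure D1:**
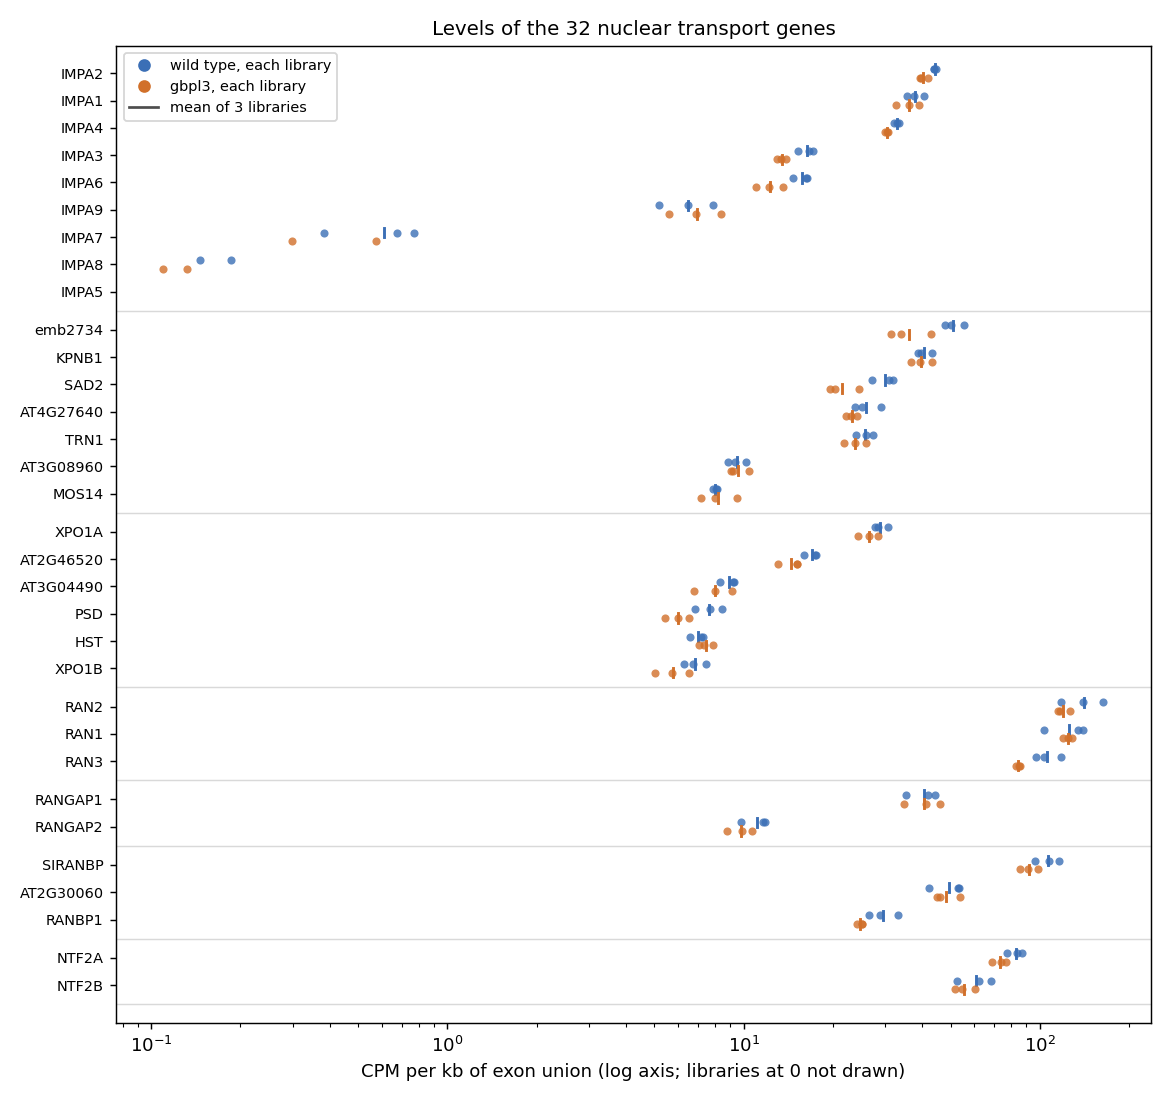
Level of each transport gene in each library, as CPM per kilobase of exon on a log axis, grouped by family. Blue points are wild-type libraries, orange points gbpl3 libraries and ticks the mean where all 3 libraries have counts. IMPA5, with no count, has no point. RAN1 and RAN2 are the highest, with means from 119 for RAN2 in gbpl3 to 141 for RAN2 in wild type.

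Most importin alpha transcript came from 3 genes, and none of the 7 tested family members was called (2, IMPA3 and IMPA6, at an unadjusted p under 0.05). Levels between genes are given as CPM per kilobase of exon, which adjusts for annotated exon length. Shares and orders within a family can still shift with the length used. IMPA2 (AT4G16143) stood at 44.7, 43.8 and 43.9 CPM per kb in wild type and 39.6, 41.8 and 39.3 in gbpl3. All 3 gbpl3 libraries were lower, but the log2 difference of -0.13 did not pass the test (adjusted p = 0.436). IMPA2 held 28.6% ± 0.147 of the summed importin alpha level in wild type and 28.8% ± 1.12 in gbpl3 (SD, n = 3). IMPA1 (AT3G06720) followed with 24.5% ± 1.25 and 25.8% ± 1.24, and IMPA4 (AT1G09270), known as a host factor for import of the Agrobacterium T-DNA complex, with 21.3% ± 0.543 and 21.8% ± 0.877. IMPA2 exceeded IMPA1 in each of the 6 libraries, the ratio of IMPA1 to IMPA2 lying between 0.813 and 0.985.

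The next pair, IMPA3 (AT4G02150) and IMPA6 (AT1G02690), held 10.6% ± 0.487 and 10.3% ± 0.77 in wild type, which overlap. IMPA3 is also named MOS6, a gene required for constitutive immune signalling in a resistance mutant. It measured 36.2, 35 and 32.3 CPM in wild type and 28.2, 29.3 and 27.4 in gbpl3. The genotypes did not overlap, and the log2 difference of -0.28 (SE 0.12) had an adjusted p of 0.132. IMPA6 gave 32, 35.5 and 35.6 CPM against 29.5, 26.5 and 23.8, again without overlap, and its log2 difference of -0.37 (SE 0.12) had an adjusted p of 0.0647. IMPA3 and IMPA6 are the closest pair of the family in coding sequence, with 76.6% identity and a longest shared run of 41 bases.

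IMPA9 (AT5G03070), the most divergent copy with coding identities of 45.3% to 50.2% to the others, supplied 4.22% ± 0.882 of the family in wild type and 4.97% ± 0.803 in gbpl3. It was the most variable tested gene apart from IMPA7, with a coefficient of variation of 20.7% in wild type. The remaining 3 copies were barely seen. IMPA7 (AT3G05720) had 8, 17 and 12 counts in wild type against 11, 7 and 0 in the mutant, and its log2 difference of -1.06 has an SE of 0.73 (adjusted p = 0.418). Its exons share 82 bases with AT3G05710 on the opposite strand. IMPA8 (AT5G52000) had 3, 0 and 2 counts against 0, 2 and 2. IMPA5 (AT5G49310) had no count in any library, which allows a level of up to 0.315 CPM in the smallest one. Neither IMPA5 nor IMPA8 was tested. Summed over the 9 genes, importin alpha stood at 154 ± 2.58 CPM per kb in wild type and 140 ± 6.76 in gbpl3.

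**Figure D2:**
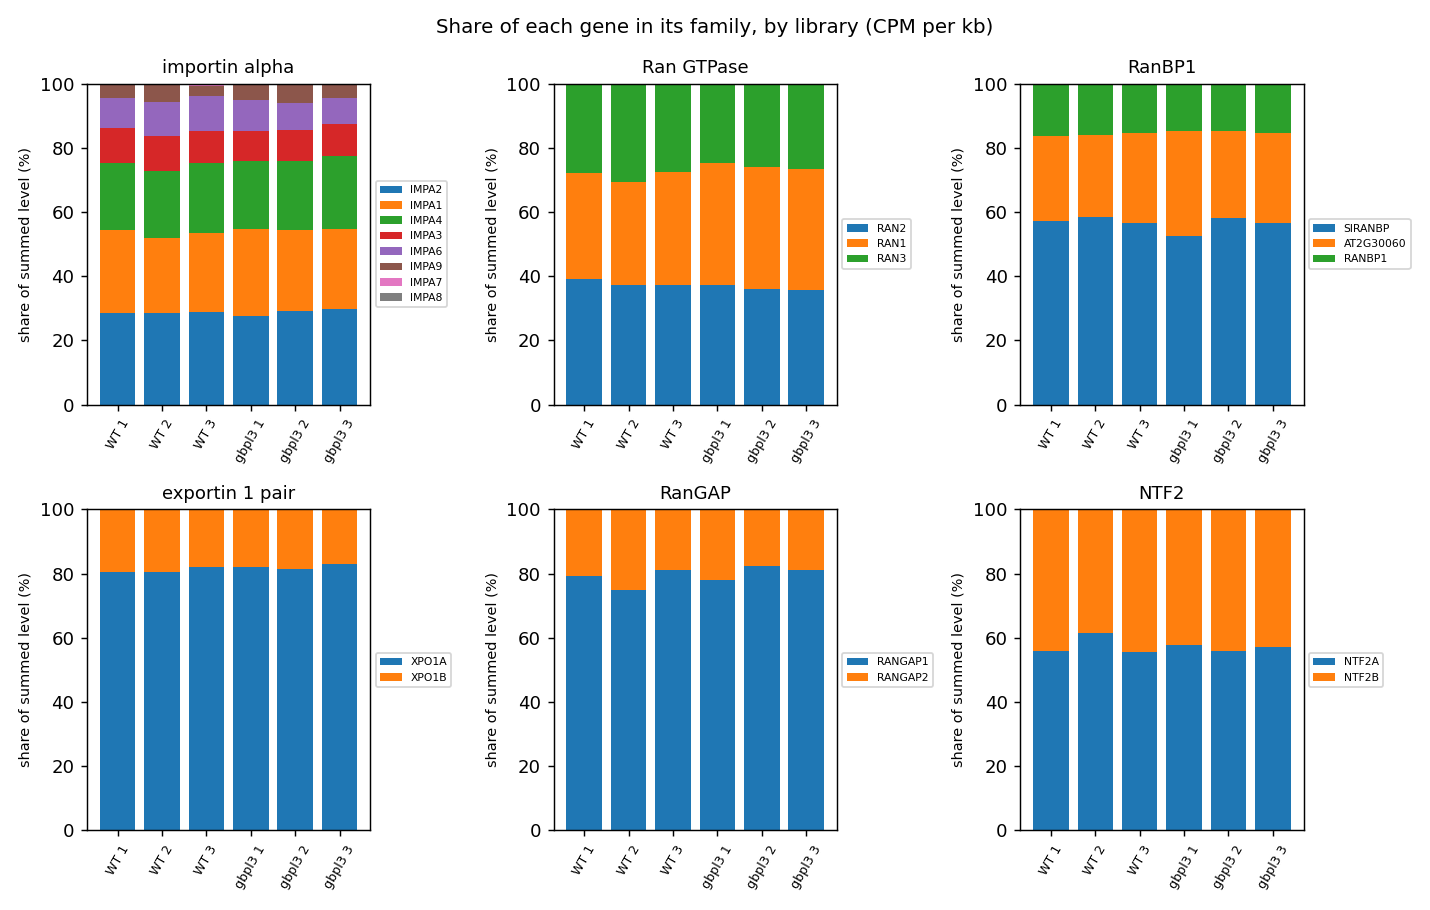
Share of each gene in the summed level of its family, in percent, for each of the 6 libraries. Stacked bars are drawn for importin alpha, Ran, RanBP1, the exportin 1 pair, RanGAP and NTF2, from CPM per kilobase of exon. IMPA2, IMPA1 and IMPA4 fill most of the importin alpha bars, and XPO1A and RANGAP1 take about 80% of their pairs (means over all libraries 81.6% and 79.4%).

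The importin beta family held the 2 calls with the smallest adjusted p. The gene emb2734 (AT5G19820, chr5:6695174-6701355, minus strand) is named for an embryo-defective mutant and has been studied under the name KETCH1 as the import receptor of the microRNA-processing protein HYL1. Its normalised level was 222, 201 and 192 CPM in wild type and 137, 172 and 126 CPM in gbpl3. Every gbpl3 library lay below every wild-type library, with gbpl3 replicate 2 the nearest. The means were 205 ± 15.5 and 145 ± 23.8 CPM, a log2 difference of -0.50 (SE 0.12, 95% interval -0.74 to -0.25, adjusted p = 0.00942).

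SAD2 (AT2G31660, chr2:13464294-13471867, plus strand) is an importin beta-like receptor whose mutant is hypersensitive to abscisic acid and drought. It was measured at 124, 119 and 105 CPM in wild type and 78.3, 95.1 and 75.5 CPM in gbpl3. Again the genotypes did not overlap and gbpl3 replicate 2 was the highest mutant library. The means were 116 ± 9.62 and 83 ± 10.6 CPM, a log2 difference of -0.48 (SE 0.11, 95% interval -0.72 to -0.25, adjusted p = 0.00861). Neither gene shared a window of 50 bases with any other transcript. Without gbpl3 replicate 1 or replicate 3 neither passed the threshold: the adjusted p became 0.0614 and 0.0779 for SAD2 and 0.066 and 0.0861 for emb2734, at log2 differences of -0.40 to -0.46. Both also missed it in limma on the deposited FPKM, at an adjusted p of 0.0535 to 0.0879.

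The other 5 receptors of the family gave no call. KPNB1 (AT5G53480), the importin beta that partners importin alpha, measured 160, 174 and 156 CPM in wild type and 159, 174 and 148 CPM in gbpl3. The libraries of the genotypes overlapped throughout, and the log2 difference was -0.03 with a 95% interval of -0.24 to 0.18. TRN1 (AT2G16950), a transportin that imports RNA-binding proteins such as GRP7, gave -0.11 (interval -0.33 to 0.11). MOS14 (AT5G62600), which imports serine- and arginine-rich splicing factors, gave 0.04 (-0.23 to 0.31). For AT3G08960 and AT4G27640, which the reference leaves without a symbol, the values were 0.02 (-0.22 to 0.25) and -0.17 (-0.39 to 0.05). For all 5 the adjusted p was between 0.351 and 0.962.

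Per kilobase of exon, the order of levels within the family differed between genotypes. In wild type emb2734 ranked first at 51 ± 3.87 CPM per kb and KPNB1 second at 40.5 ± 2.42. In gbpl3 KPNB1 stood at 39.8 ± 3.33 and emb2734 at 36.1 ± 5.94, which overlap. The wild-type order of these genes depends on the length used. Their exons are 4028 bases in KPNB1 and 4016 in emb2734, but their coding sequences are 2613 and 3351. Dividing by coding length therefore raises KPNB1 relative to emb2734, and the order on that scale was not examined for this family. SAD2 held 15.7% ± 0.687 of the summed family level in wild type, the third share, and 13.2% ± 0.37 in gbpl3, below TRN1 at 14.7% ± 0.459 and AT4G27640 at 14.3% ± 1.11. Shares sum to 100% within a family by construction, so the other shares rise as these 2 fall. AT3G08960 and MOS14 were the lowest of the family, at 9.46 ± 0.666 and 8.01 ± 0.129 CPM per kb in wild type.

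**Figure D3:**
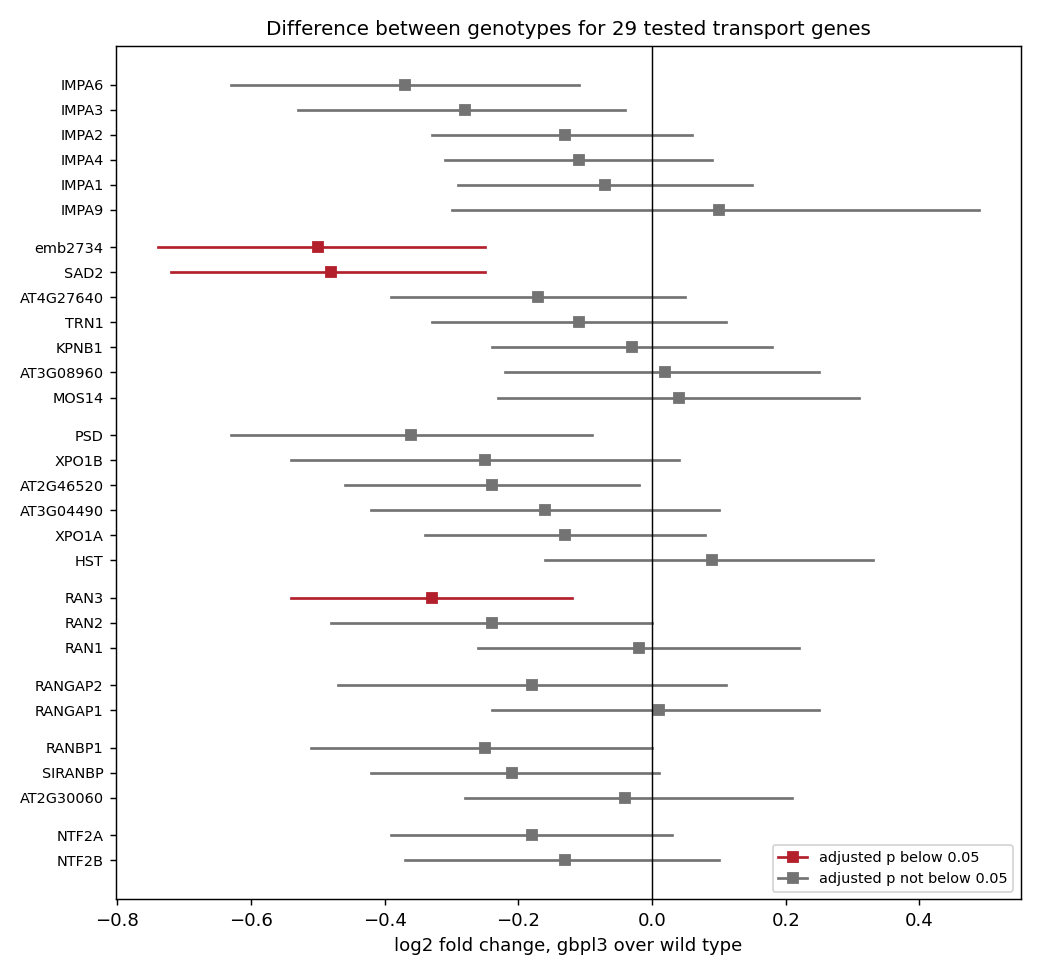
Log2 fold change of gbpl3 over wild type for 29 tested transport genes, with 95% intervals, grouped by family. Red marks the genes with an adjusted p below 0.05 and grey the others, and IMPA7 is left off because its interval runs from -2.58 to 0.47. SAD2, emb2734 and RAN3 are the 3 red points, and all lie left of 0.

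None of the 6 exportins was called by edgeR or DESeq2, and 2, PSD and AT2G46520, had an unadjusted p under 0.05. XPO1A (AT5G17020), the receptor for leucine-rich nuclear export signals, measured 30.6, 27.7 and 28.5 CPM per kb in wild type and 26.5, 28.5 and 24.4 in gbpl3, ranges that overlap. Its close copy XPO1B (AT3G03110), with 84.0% coding identity, stood at 6.83 ± 0.615 and 5.75 ± 0.767. XPO1A therefore made up 80.9% ± 0.88 of the pair in wild type and 82.2% ± 0.798 in gbpl3, or 4.25 ± 0.249 and 4.62 ± 0.25 times the level of XPO1B. The log2 differences were -0.13 (SE 0.10, adjusted p = 0.478) for XPO1A and -0.25 (SE 0.14, adjusted p = 0.3) for XPO1B.

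PSD (AT1G72560, PAUSED), the exportin for transfer RNA, measured 32.2, 35.5 and 28.6 CPM in wild type and 27.4, 25.1 and 22.8 in gbpl3. The genotypes did not overlap, and the log2 difference of -0.36 (SE 0.13) had an adjusted p of 0.0851. The exons of PSD share 206 bases with AT1G09323 on the opposite strand in the reference. AT2G46520, annotated as the re-exporter of importin alpha, also separated without overlap, from 65.9 ± 3.31 to 55.9 ± 4.5 CPM, at -0.24 (adjusted p = 0.165). HST (AT3G05040, HASTY), the exportin-5 homologue with a role in microRNA accumulation, had the opposite sign at 0.09 (interval -0.16 to 0.33, adjusted p = 0.73). AT3G04490, annotated as exportin-4, gave -0.16 (interval -0.42 to 0.10, adjusted p = 0.486). After XPO1A the order of levels per kilobase in wild type was AT2G46520 at 17 ± 0.853, then AT3G04490 at 8.93 ± 0.534, PSD at 7.66 ± 0.819, HST at 7.01 ± 0.383 and XPO1B. The ranges of PSD, HST and XPO1B overlapped there, as did those of PSD and AT3G04490.

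RAN1 and RAN2 were the most abundant genes of the set per kilobase, at percentiles 96.4 and 96.5 of all tested genes, and RAN3 was at 95.1. RAN3 fell. Its level was 131, 108 and 116 CPM in wild type and 93, 94.6 and 95.3 CPM in gbpl3, with all mutant libraries below the lowest wild-type library. The means were 118 ± 11.6 and 94.3 ± 1.2 CPM, a log2 difference of -0.33 (SE 0.10, 95% interval -0.54 to -0.12, adjusted p = 0.0442). This call was near the threshold. It was lost at an adjusted p of 0.0966 to 0.156 when any library other than wild-type replicate 2 was left out, at 0.0865 with the replicate number as a block, and at 0.0639 to 0.0837 in limma on FPKM.

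RAN2 measured 200, 144 and 171 CPM in wild type and 154, 142 and 140 CPM in gbpl3. Wild-type replicate 2 lay within the gbpl3 range, and the log2 difference of -0.24 (SE 0.11) had an adjusted p of 0.21. Without that library it was -0.35 with an adjusted p of 0.0345, the sole alternative under which an uncalled transport gene passed. RAN1 measured 212, 157 and 204 CPM in wild type and 194, 188 and 183 CPM in gbpl3. The same wild-type library was the lowest there, the ranges overlapped, and the log2 difference was -0.02 (SE 0.11, adjusted p = 0.947, interval -0.26 to 0.22).

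Within the family RAN2 was first in wild type at 164, 118 and 140 CPM per kb, with RAN1 at 140, 103 and 134. In gbpl3 RAN2 stood at 126, 117 and 115 and RAN1 at 128, 124 and 120. The RAN1 share was 33.7% ± 1.59 in wild type and 37.8% ± 0.23 in gbpl3, without overlap, and the RAN3 share went the other way from 28.6% ± 1.65 to 25.8% ± 0.988, also without overlap. RAN2 held 37.8% ± 1.04 and 36.4% ± 0.901. An exact permutation test of 3 against 3 libraries cannot go below p = 0.1, so shares are given without one. The order of RAN1 and RAN2 depended on how length was treated: divided by coding length, which is equal for the 3 genes, RAN1 led with 41.8% over all libraries, RAN2 held 34.8% and RAN3 23.4%. No single Ran gene therefore dominated on every scale, while RAN3 was the lowest on each scale tried.

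RanGAP transcripts came mostly from RANGAP1 (AT3G63130), at 44.4, 35.4 and 41.8 CPM per kb in wild type and 34.9, 41.2 and 45.9 in gbpl3. The genotypes overlapped fully, with a log2 difference of 0.01 (interval -0.24 to 0.25, adjusted p = 0.986). RANGAP2 (AT5G19320), 65.0% identical to it in coding sequence, stood at 11.1 ± 1.11 and 9.81 ± 0.959 CPM per kb, a log2 difference of -0.18 (adjusted p = 0.473). RANGAP1 made up 78.4% ± 3.1 of the pair in wild type and 80.5% ± 2.26 in gbpl3. Both genes anchor at the nuclear envelope in plants through a plant-specific domain. Their counts carry a limit: in the reference, exons of RANGAP1 share 107 bases on the opposite strand with AT3G63140, which had 32704 counts against 6151 for RANGAP1. They also share 218 bases on that strand with AT3G09895, which had 685 counts, and exons of RANGAP2 share 70 bases on the same strand with AT5G19330. How strand was set in the counting is not given in the sources used here.

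Of the RanBP1-type genes, AT1G07140 (SIRANBP in the reference) was the highest, at 116, 96 and 107 CPM per kb in wild type and 85.7, 98.6 and 91.5 in gbpl3. The ranges overlapped, and the log2 difference of -0.21 (SE 0.10) had an adjusted p of 0.233. It supplied 57.4% ± 0.814 of the family in wild type and 55.7% ± 2.96 in gbpl3, AT2G30060 26.7% ± 1.19 and 29.3% ± 3.11, and AT5G58590 (RANBP1) 15.9% ± 0.564 and 15% ± 0.424. AT5G58590 separated without overlap, from 33.5 ± 3.9 to 28.2 ± 0.604 CPM, at -0.25 (adjusted p = 0.219). AT2G30060 gave -0.04 (interval -0.28 to 0.21, adjusted p = 0.903).

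The NTF2 pair was the most evenly divided. NTF2A (AT1G27310) measured 87.2, 84 and 77.7 CPM per kb in wild type and 74.2, 76.6 and 69.1 in gbpl3, and NTF2B (AT1G27970) 61 ± 8.1 and 55.6 ± 4.34. All gbpl3 libraries of NTF2A were lower than its wild-type libraries, but the log2 difference of -0.18 (SE 0.10) had an adjusted p of 0.3, and that of NTF2B was -0.13 (adjusted p = 0.531). NTF2A held 57.7% ± 3.35 of the pair in wild type and 56.9% ± 0.915 in gbpl3, and 50.4% over all libraries when length was left out. Their coding sequences were 72.6% identical.

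Summed over a family, levels per kilobase were 191 ± 7.97 in wild type and 162 ± 16.4 in gbpl3 for the importin beta family, 76.4 ± 3.33 and 68 ± 5.66 for exportins, and 373 ± 51.5 and 328 ± 8.5 for Ran. RanGAP gave 51.6 ± 4.42 and 50.5 ± 5.92, RanBP1 185 ± 19 and 165 ± 4.36, and NTF2 144 ± 10.3 and 129 ± 7.95. RanGAP was the family with the nearest means. Wild-type replicate 2 was the lowest of its genotype in Ran, RanBP1, RanGAP and NTF2, at 319, 165, 47.2 and 136.

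A second list held 14 further genes of the same machinery: other importin beta family receptors, RAN4, an NTF2-like gene and the WIP and WIT proteins that anchor RanGAP. Of these, 12 were tested, 2 fell (16.7%, against 4.69% of all tested genes) and none rose (against 6.06%). The median log2 fold change was -0.18, with 8 of the 12 below 0 and 4 above. AT3G59020, which is 72.1% identical to SAD2 in coding sequence, measured 128, 118 and 116 CPM in wild type and 91.6, 104 and 94.6 CPM in gbpl3. The genotypes did not overlap, and the log2 difference was -0.32 (SE 0.10, adjusted p = 0.0467). AT3G08943 measured 76.2, 69.7 and 70.6 CPM against 57.7, 54.1 and 53.5, also without overlap, at -0.39 (SE 0.10, adjusted p = 0.0164). Without wild-type replicate 3 or gbpl3 replicate 3 neither was called. AT3G59020 also lost its call without wild-type replicate 1 or gbpl3 replicate 1, and AT3G08943 without gbpl3 replicate 2. Upper-quartile scaling, the replicate block and every limma fit also left AT3G59020 uncalled, as did the limma fit on all genes for AT3G08943. RAN4 (AT5G55080) had no count in any library, so RAN1, RAN2 and RAN3 were the Ran genes seen in these seedlings.

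Lists of marker genes for cell types and tissues each had summed levels that did not overlap between genotypes. Among all tested genes 4.69% were called lower and 6.06% higher. Summed CPM of 10 dividing-cell genes was 223 to 253 in wild type and 173 to 192 in gbpl3, with 2 of 10 called lower (CYC1BAT and CYCB3;1), 9 of 10 below 0 and a median log2 fold change of -0.30. Summed CPM of 10 root genes was 198 to 234 and 138 to 168, with 2 of 10 lower (EIR1 and RCI3). Their median was -0.17, with 6 below 0 and 4 above, and RCI3 changed most in CPM (means 67.7 and 27.6). Summed CPM of 10 green-tissue genes was 46879 to 52789 and 53373 to 62267, with 1 of 10 higher (CAB1) and a median of 0.21. All 10 had a value above 0, and CAB1 changed most in CPM (means 17675 and 22771). Summed CPM of 10 genes expressed in seeds was 0.262 to 2.71 in wild type and 24.1 to 242 in gbpl3. The 5 of them that were tested were called higher. They passed the low-count filter largely through their gbpl3 counts, so a fall could hardly have been seen and their calls add no support. No marker was at 0 in all libraries, but CRU2, CRU3, SESA1, SESA3 and SESA4 had no count in any wild-type library. The part of these differences in the values of SAD2, emb2734, RAN3 and the other transport genes was not tested.

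**Figure D4:**
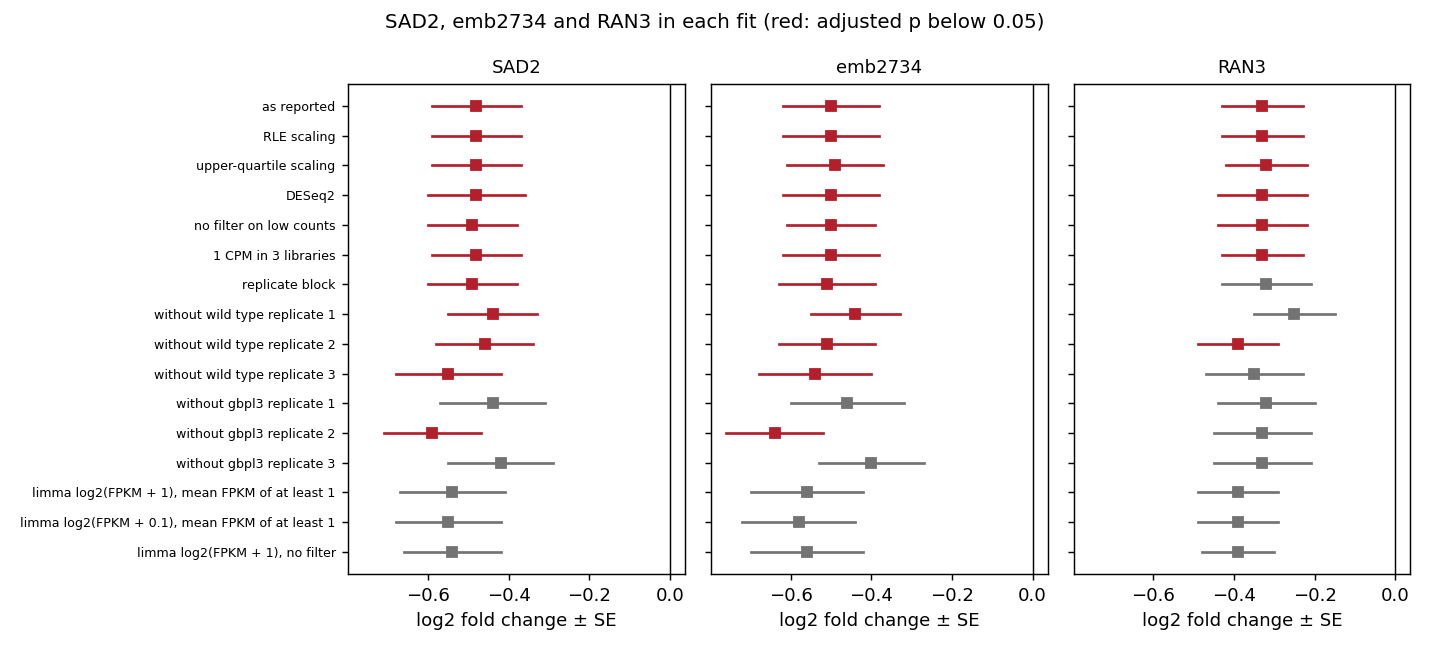
Log2 fold change ± SE of SAD2, emb2734 and RAN3 in the fit reported here and in 15 others, 1 row per fit. Red marks an adjusted p below 0.05. All 48 points lie below 0, from -0.64 for emb2734 without gbpl3 replicate 2 to -0.25 for RAN3 without wild-type replicate 1.

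The 250 bases before each annotated gene start were searched on both strands for 6 short motifs known from plant promoters. The site II element TGGGCC was present in 3 of the 32 windows (9.4%), against 15.8% of 20626 windows of tested genes, and its variant TGGGCT, which differs in the last base, in 12.5% against 13.9%. Unlike the background, the 32 windows include those of the untested IMPA5 and IMPA8. The window of RAN2 reaches into the neighbouring RAN1. The telo box AAACCCTA was found in 3.1% against 3.6%, the G-box CACGTG in 3.1% against 7.0%, and the E2F motif TTTCCCGC in 0.0% against 0.6%. TATAAA was present in 50.0% against 45.0%. The telo box match was that of IMPA8, and IMPA5 was among the genes with TATAAA. Apart from TATAAA in emb2734 and RAN3, none of the 6 motifs matched upstream of SAD2, emb2734 or RAN3. These matches describe letters in the windows and say nothing about binding.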

How the data were processed

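The authors deposited raw counts per gene and FPKM values for the 6 libraries, made from paired reads of strand-specific libraries per the labels' protocols. The submitters' processing notes name HISAT2 2.0.4 and HTSeq 0.6.1p1 as tools and TAIR10 as the genome build. For strand and for reads that match several genes, the counting rules were not given in the sources used here. Names, coordinates, sequences and lengths are from RefSeq TAIR10.1, which held 99.1% of the gene IDs.

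Counts were filtered with filterByExpr (20677 genes kept), TMM-scaled and fitted in edgeR 4.0.16 (R 4.3.3) by the quasi-likelihood F test with genotype as the single term, Benjamini-Hochberg adjustment and a threshold of 0.05. The SE is the log2 fold change divided by the square root of F. CPM are TMM-scaled, and levels between genes are CPM per kilobase of the exon union. Deposited FPKM were used for limma 3.58.1 and as another scale of shares. The FPKM length equalled the exon union for the 17 single-transcript members except IMPA5, which had no counts to derive it from. It was longer for the 15 members with several transcripts, up to 2.417 times (PSD). Floors cover counting error only, as PCR copies are not separate molecules.

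Genotypes and replicate numbers come from sample titles, and the mutant's numbers 1 to 3 were read as replicates. Between libraries of 1 genotype the chi-square over genes was 4.97 to 14.4 per degree of freedom, so none was a duplicate. Members and lists were chosen with earlier results of these data known. All members are named, with each library's value for called members and the highest gene of each family, and called genes of the second list. Library values of IMPA3, IMPA6, PSD, KPNB1, RAN1 and RAN2 were added after seeing them. Alternatives were other scalings, filters, DESeq2 1.42.0, limma, a replicate block and leaving out each library. The fit was tested on simulated data.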

Additional observations from a re-analysis of the deposited data

How the results depend on the processing

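SAD2, emb2734 and RAN3 kept their sign in all 45 alternative values and passed the threshold in 26. RLE and upper-quartile scaling, DESeq2, no filter on low counts and a filter of 1 CPM in 3 libraries each kept the 3 calls. Leaving out 1 library gave 0 to 4 members lower, with 0 without gbpl3 replicate 1 or replicate 3, 0 to 2 of the second list, 320 to 1238 of all genes lower and 629 to 1443 higher. The 3 limma fits called 0 members each. They used log2(FPKM + 1) and then log2(FPKM + 0.1) on genes with a mean FPKM of 1 or more, and log2(FPKM + 1) on all genes. They gave 424, 384 and 294 genes higher, 390, 368 and 227 lower, and 1, 1 and 0 of the second list. The cause was not tested. In those fits the adjusted p was 0.0535 to 0.0772 for SAD2, 0.0603 to 0.0879 for emb2734 and 0.0639 to 0.0837 for RAN3. Upper-quartile scaling called 1 gene of the second list. With the replicate number as a block, 2 members (SAD2 and emb2734), 1 gene of the second list and 618 of all genes were called lower. Whether the numbers pair the libraries is not known. Deviations of same-numbered libraries correlated at -0.0461, -0.0647 and 0.0355 across genes, which cannot show whether they were grown or prepared together. Of 403 alternative values of uncalled members, 1 passed (RAN2). The sign of 7 uncalled members changed in 25 of their alternative values. With 1 library left out their log2 fold changes ranged from -0.06 to 0.26 for IMPA9, -0.09 to 0.03 for KPNB1, -0.05 to 0.07 for AT3G08960, -0.07 to 0.13 for MOS14, -0.14 to 0.06 for RAN1, -0.08 to 0.10 for RANGAP1 and -0.14 to 0.02 for AT2G30060. In the limma fits, in the order above, AT3G08960 gave -0.05, -0.05 and -0.05, MOS14 -0.03, -0.04 and -0.03, and RANGAP1 -0.06, -0.07 and -0.06. The number of tested members below 0 was 23 to 29 of 30 with 1 library left out. Shares over all libraries moved with the length scale, given in the order deposited FPKM, coding length and no length: IMPA2 of importin alpha 30%, 31.9% and 31.9%, XPO1A of its pair 78.5%, 82.7% and 82.7%, and NTF2A of its pair 65.4%, 53.7% and 50.4%. By coding length and no length, RAN2 held 34.8% and 34.8% and AT1G07140 60% and 61.1%. Depth limits IMPA5, IMPA7 and IMPA8, which had 0, 55 and 9 counts over the 6 libraries.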
